A study of Mus musculus with 6 samples.

Results

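Keratins, desmosome proteins and the proteins of the squamous barrier were examined as 1 set of genes in crypt cells of the mouse colon. The set was chosen by gene name alone. It took in every keratin, desmoglein, desmocollin and plakophilin, plakoglobin (Jup), desmoplakin (Dsp), envoplakin (Evpl), periplakin (Ppl), involucrin, the small proline-rich (Sprr), late cornified envelope (Lce), S100A, filaggrin, hornerin, repetin (Rptn) and cornulin (Crnn) genes, and the transglutaminases. Of the fused-type S100 genes, Tchh and Tchhl1 were not among these names. Of 55487 genes in the files, 139 matched these names, and 61 of them had at least 10 counts in at least 3 of the 6 libraries and were kept. Among the others, 67 had counts but were not kept and 11 had no count in any library.

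The measurement was bulk RNA-seq of polyadenylated RNA. The mutant group (n = 3) held M14(f/f);Villin-Cre mice and the control group (n = 3) held M14(f/f) mice, all C57BL/6 and 4 weeks old. In both groups both copies of M14, read here as Mettl14, carry loxP sites, and the Villin promoter drives Cre recombinase in the gut epithelium of the mutants. The labels describe the controls as wild type in one field and as M14(f/f) in another. Mettl14 encodes the partner of Mettl3 in the enzyme that writes N6-methyladenosine on RNA. Only mutants carried Cre, so Cre itself and the loss of Mettl14 cannot be told apart. In bulk RNA, fewer cells of a type and less RNA per cell cannot be told apart either. The labels do not say how the crypt cells were purified or whether a library came from 1 mouse.

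Keratins form the intermediate filaments of epithelial cells, as pairs of a type I and a type II protein. Desmosomes fasten these filaments to the membrane: desmogleins and desmocollins reach across to the next cell, and plakoglobin, plakophilins and desmoplakin link them to keratin. The colon is a simple epithelium that relies on Krt8, Krt18, Krt19 and Krt20. Stratified epithelia such as skin and tongue instead build a cornified envelope, in which transglutaminases cross-link Sprr, Lce and other proteins encoded in the epidermal differentiation complex.

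Mettl14 was at 14.0, 13.8 and 10.5 CPM in mutants 1, 2 and 3, against 26.2, 20.9 and 22.0 CPM in controls 1, 2 and 3. CPM is a count scaled by TMM to the size of its library. The mutant libraries were all below the control libraries, a log2 fold change of -0.85 ± 0.13 (SE, with an adjusted p of 6.22e-04). The counts cover all exons of the gene, and the flanked part is not given in the sources used here. Library totals ran from 24181631 to 34842591 counts in mutants and from 32165546 to 35183636 in controls, so that 3 counts, the limit a count of 0 allows, stand for 0.0820 to 0.120 CPM. This floor covers counting error only. A ribosomal RNA gene, CT010467.1, took 12.9%, 7.44% and 5.16% of counts in mutants and 7.76% to 8.90% in controls. Mutant 1 stood apart in sex-linked transcripts, with 652 CPM of Xist and 0.541 CPM of the Y-linked Ddx3y. Mutant 2 had 53.1 CPM of Xist beside 38.0 CPM of Ddx3y, whereas mutant 3 and the controls had 1.28 to 1.77 CPM of Xist and 44.2 to 58.4 CPM of Ddx3y. The labels give no sex. Counts are therefore also given without mutant 1 and with mutant 3 as the lone mutant library.

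Of the 61 genes, 19 were higher and 12 were lower in mutants at an adjusted p under 0.05 (edgeR's quasi-likelihood test), and 30 did not pass. Over all 18539 genes tested, 23.5% were higher and 22.8% were lower, together 46.3%. The 50.8% of the set that passed was therefore near the background, with 31.1% higher and 19.7% lower. A rise of more than 2-fold was seen in 14 genes of the set, 6 of them kept only through the mutants, while 10.5% of all tested genes rose that far. A fall of more than 2-fold was seen in 2, Krt14 and Tgm3, while 6.05% of all genes fell that far. The median log2 fold change was 0.35 over the set and 0.01 over all tested genes.

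Of the kept genes, 6 reached 10 counts only in mutants: Rptn, Krt6a, S100a8, S100a9, Lce3b and Sprr2h. All 6 are among the 19 genes that were higher and the 14 more than 2-fold higher. They had to differ to be kept, so their rises say nothing about the set. Among the 51 genes with at least 10 counts in every library, 11 were higher, 12 were lower and 28 did not pass. Their median log2 fold change was 0.22, and 6 of them (11.8%) rose more than 2-fold. Of 15271 genes tested with that many counts in every library, 23.3% were higher, 25.9% were lower and 7.60% rose more than 2-fold. Split by level, among 28 genes with a mean of at least 10 CPM over all libraries, 5 were higher and 9 lower, and among 33 genes under 10 CPM, 14 were higher and 3 lower. The 6 genes kept only through the mutants are all in the lower class, and among its 23 genes with 10 counts in every library 6 were higher and 3 lower. Over all genes, 25.6% were higher and 31.1% lower at 10 CPM or more, and 21.4% were higher and 14.7% lower under it. The mutant libraries lay wholly above the controls in 21 genes and wholly below them in 16, and the groups did not overlap in 56.9% of all tested genes.

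**Figure D1:**
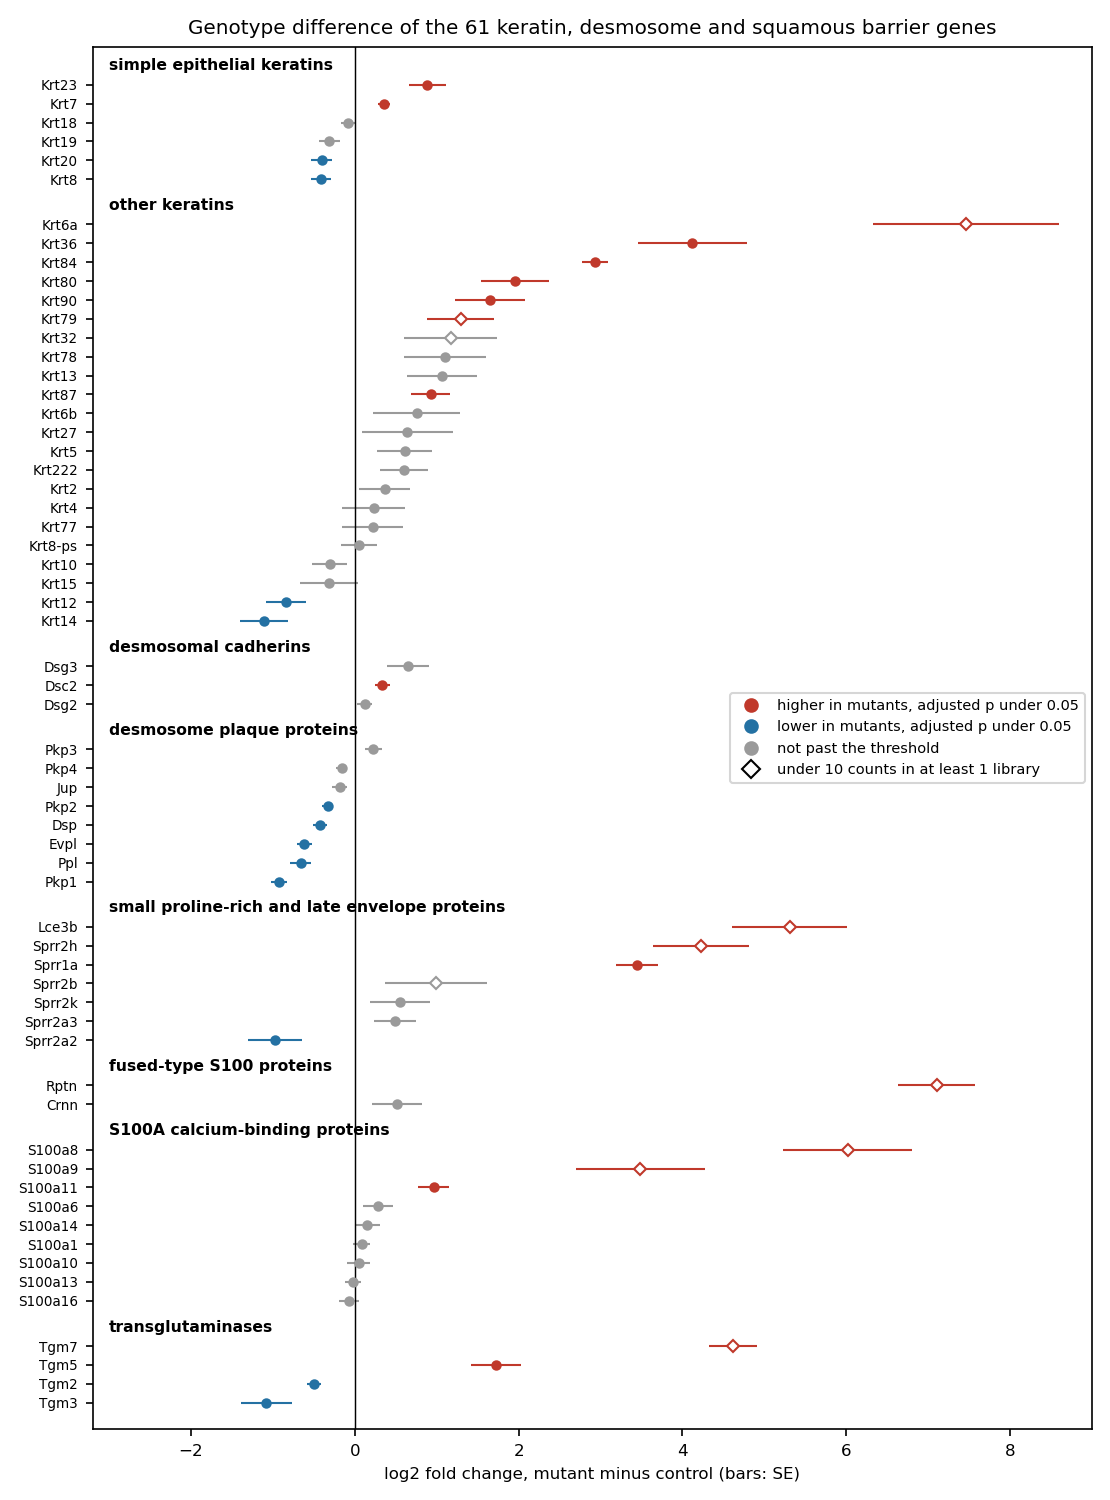
Log2 fold change, mutant minus control, of the 61 genes on the x axis, ordered within their roles down the page; points are estimates and bars their SE. Red points are higher and blue points lower in mutants at an adjusted p under 0.05, and open diamonds mark genes with under 10 counts in at least 1 library. The largest rises are keratins outside the simple epithelial group, envelope proteins, Rptn, S100a8 and Tgm7, and the desmosome plaque proteins lie mostly left of 0. The value of Krt6a, which had no count in controls, depends on the prior count and is no bound.

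Leaving out mutant 1 gave 26 genes higher and 12 lower, where 22.2% of all genes tested were higher and 21.7% lower. Krt13, Krt78, Pkp3, S100a6, S100a14, Sprr2a3 and Sprr2b then passed as higher and Pkp4 as lower, and Sprr2a2 no longer passed. With mutant 3 as the lone mutant library, 21 were higher and 8 lower, where 16.2% of all genes tested were higher and 17.0% lower. The controls alone then give the spread, and the lone mutant is assumed to vary like them, so calls lost there are not read as weaker effects. Mutant 1 was the lowest mutant library in 14 of the 19 genes that rose, while mutants 2 and 3 were each the highest in 9.

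The threshold on counts ran through a group of sparse genes. Just inside it, 7 genes had 10 counts in exactly 3 libraries: the 6 named above and the hair keratin Krt32, which had 8, 18 and 13 counts in mutants and 7, 11 and 2 in controls. Just outside it, 8 genes had 10 counts in exactly 2 libraries: Dsg4, Krt1, Krt16, Krt17, Krt75, S100a7a, Sprr2a1 and Tgm6. Krt16, a keratin of activated keratinocytes, had 6, 25 and 29 counts in mutants and 1, 2 and 4 in controls. Tgm6 had 4, 22 and 35 counts in mutants and 2 in each control. Sprr2a1 had 3, 4 and 6 counts in mutants and 16, 11 and 4 in controls.

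Promoters from the RefSeq table for GRCm38.p6 were found for 41 of the 61 genes. Those below belong to the 4 most abundant genes among the ones more than 2-fold higher in mutants that had a promoter in the table. Where a gene had more than 1, the first listed was used. Each is the 250 bases before the transcription start, 5′ to 3′ on the gene's own strand. Capitals mark the AP-1 motif, TGANTCA, and the TATA box letters, TATAAA. Sprr1a lies at chr3:92485882-92486131 (minus strand), Krt84 at chr15:101532821-101533070 (minus strand), Rptn at chr3:93393449-93393698 (plus strand) and Krt36 at chr11:100105627-100105876 (minus strand).
Sprr1a: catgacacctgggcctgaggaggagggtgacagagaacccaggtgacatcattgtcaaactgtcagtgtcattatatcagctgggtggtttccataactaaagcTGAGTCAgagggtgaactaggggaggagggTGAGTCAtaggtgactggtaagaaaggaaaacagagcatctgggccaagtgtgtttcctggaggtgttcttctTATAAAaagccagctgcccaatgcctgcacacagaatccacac
Krt84: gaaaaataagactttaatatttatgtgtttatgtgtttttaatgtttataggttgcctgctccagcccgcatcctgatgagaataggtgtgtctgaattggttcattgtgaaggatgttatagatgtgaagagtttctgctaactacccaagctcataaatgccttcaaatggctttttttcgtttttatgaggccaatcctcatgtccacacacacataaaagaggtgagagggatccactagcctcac
Rptn: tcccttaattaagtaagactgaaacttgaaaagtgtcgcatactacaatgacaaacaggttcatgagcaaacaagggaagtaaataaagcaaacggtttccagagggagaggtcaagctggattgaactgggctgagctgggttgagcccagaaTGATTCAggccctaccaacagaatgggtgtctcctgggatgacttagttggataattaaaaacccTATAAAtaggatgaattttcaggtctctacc
Krt36: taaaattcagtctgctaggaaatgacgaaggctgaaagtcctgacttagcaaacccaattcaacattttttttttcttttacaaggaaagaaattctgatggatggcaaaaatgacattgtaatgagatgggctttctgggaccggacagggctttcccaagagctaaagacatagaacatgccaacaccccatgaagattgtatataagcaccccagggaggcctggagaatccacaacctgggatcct

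The Sprr1a promoter held AP-1 letters beginning 146 and 116 bases before the start and TATAAA beginning 43 bases before it. That of Rptn held AP-1 letters at 96 bases and TATAAA at 31 bases. Those of Krt84 and Krt36 held neither in this window. AP-1 letters, searched on both strands of the 250 bases, occurred in 4 of 15 genes higher in mutants (26.7%), in 0 of 7 lower and in 4 of 19 that did not pass (21.1%). They occurred in 6.87% of the 27025 promoters in the table. TATAAA, searched on the gene's strand, occurred in 4 of 15 higher, 3 of 7 lower and 6 of 19 others, and in 8.12% of all promoters. The letters AACCNGTT, bound by Grainyhead-like factors, occurred in 2 of 15 higher genes (Rptn and S100a9), in none of the others with a promoter, and in 1.71% of all promoters. CCNCNCCC, for KLF factors, was in 7 of the 15 higher genes and in 45.6% of all promoters. Rptn and S100a9, the genes with AACCNGTT, were kept only through the mutants and had to differ to be kept. The same holds for Rptn and Sprr2h among the higher genes with AP-1 letters. It also holds for Rptn, S100a8 and Sprr2h among those with TATAAA. These shares therefore do not tell higher genes from the others. Letters in a window are a description and not a site of binding.

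The simple epithelial keratins, the filament proteins of the colon's own epithelium, split. Of 6, Krt8 and Krt20 were lower, Krt7 and Krt23 were higher, and Krt18 and Krt19 did not pass. Krt8, the main type II keratin of simple epithelia, was at 1263, 1588 and 1598 CPM in mutants, against 2183, 1822 and 1906 CPM in controls. All mutant libraries were below all controls, with a gap between the nearest libraries smaller than the spread within either group (log2 fold change -0.41 ± 0.12, SE; adjusted p = 0.0185). Krt20, a type I keratin of mature colonocytes, was at 1138, 1592 and 1552 CPM in mutants, against 1926, 1878 and 1867 CPM in controls. Mutant 1 was the lowest library by far, and the controls lay close together (log2 fold change -0.41 ± 0.13, SE; adjusted p = 0.0262). The call of Krt8 was lost without control 1 (log2 fold change -0.34; adjusted p = 0.0572). That of Krt20 was lost without control 1, 2 or 3 (adjusted p = 0.0579, 0.0540 and 0.0588). Without scaling beyond the library total the adjusted p was 0.0721 for Krt8 and 0.0894 for Krt20.

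Krt19, the most abundant keratin per length, was at 2242, 2916 and 2836 CPM in mutants and 3716, 3067 and 3148 CPM in controls, without passing (adjusted p = 0.0733). Krt18, the usual partner of Krt8, was at 463 to 551 CPM in mutants and 533 to 557 CPM in controls, which overlapped. Krt7, a type II keratin of ducts and other simple epithelia, was at 297, 304 and 327 CPM in mutants, against 237, 249 and 240 CPM in controls. The mutant libraries lay close together above the controls, a small rise with little spread (log2 fold change 0.35 ± 0.07, SE; adjusted p = 0.00321). Krt23, a type I keratin, was at 6.57, 6.28 and 10.9 CPM in mutants, against 4.94, 3.89 and 4.07 CPM in controls. Mutant 3 was the highest of the mutants and there was no overlap (log2 fold change 0.89 ± 0.23, SE; adjusted p = 0.00983).

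Markers of colon epithelium outside the set were lower in sum, as Krt8 and Krt20 were. The summed level of 8 such markers ran from 11395 to 12951 CPM in mutants and from 21834 to 26548 CPM in controls. Of the 8, 6 were lower and 0 higher, where 22.8% and 23.5% of all genes tested were. Most of the sum was Muc2, at 7227, 6223 and 5438 CPM in mutants and 10853, 16197 and 15200 CPM in controls, and Car1, at 1772 to 2300 CPM in mutants and 5089 to 6125 CPM in controls. Cdx2 and Cdh17 did not pass (log2 fold changes 0.14 and 0.04). A list of 8 fibroblast markers ran from 88.3 to 106 CPM in mutants and 199 to 232 CPM in controls. A list of 6 smooth muscle markers ran from 58.1 to 62.8 CPM in mutants and from 75.5 to 84.0 CPM in controls. The part of these in the keratin values was not tested.

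Per kilobase of exon, the means of both keratin types were lower in mutants while their ratio was close. The summed level of 12 type I keratins was 2555 ± 369 CPM per kilobase in mutants and 3157 ± 212 in controls (SD, n = 3 each). That of 14 type II keratins was 820 ± 103 CPM per kilobase in mutants and 1047 ± 96.9 in controls. The ratio of type I to type II was 3.11 ± 0.09 in mutants and 3.02 ± 0.08 in controls. Within type I, the share of Krt20 was 28.9% in mutants and 31.1% in controls, and that of Krt19 was 56.3% in mutants and 56.4% in controls. Within type II, Krt8 made up 92.3% in mutants and 96.1% in controls, and Krt7 made up 5.39% in mutants and 3.30% in controls. The ratio of Krt7 to Krt8 per length was 0.0653, 0.0531 and 0.0569 in mutants, against 0.0301, 0.0380 and 0.0350 in controls, with no overlap. These sums and ratios are descriptions without a test.

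**Figure D2:**
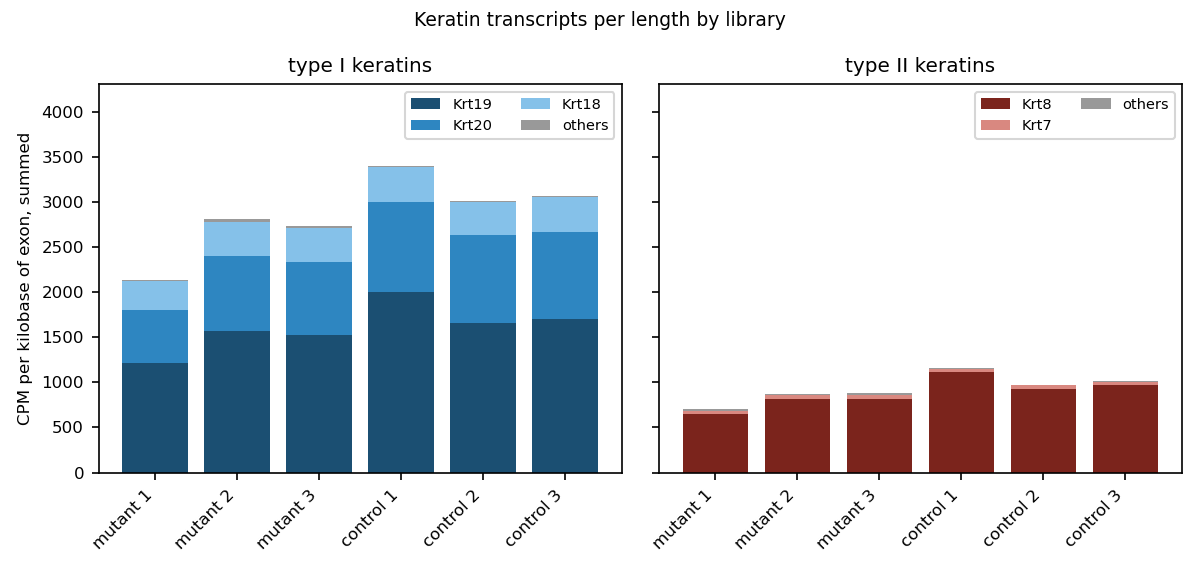
Summed keratin level in CPM per kilobase of exon on the y axis, for each library on the x axis, with type I keratins on the left and type II on the right; colours show the genes. Krt19, Krt20 and Krt18 make up nearly all of type I and Krt8 nearly all of type II in every library. Mutant 1 has the lowest sum and control 1 the highest in both panels.

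Keratins of stratified epithelia, hair and nail were rare but included the largest relative rises among the keratins. Of 22 keratin genes outside the simple group, 7 were higher (Krt84, Krt36, Krt6a, Krt80, Krt90, Krt87 and Krt79), 2 were lower (Krt14 and Krt12) and 13 did not pass. That was 31.8% higher and 9.09% lower, where 23.5% and 22.8% of all genes tested were. Excluding the 3 with under 10 counts in some library, 5 of 19 were higher (26.3%) and 2 lower (10.5%). Of all genes with 10 counts in every library, 23.3% were higher and 25.9% lower, so the higher share of the 19 was near the background. The 20 of them that belong to type I or II and are no pseudogene or orphan made up 0.927% of the summed keratin level per length in mutants and 0.338% in controls.

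Krt84, a type II keratin of hair and nail, was at 21.8, 25.5 and 32.7 CPM in mutants, against 3.82, 3.38 and 3.26 CPM in controls. The groups were far apart, and the controls agreed closely with each other (log2 fold change 2.93 ± 0.16, SE; adjusted p = 1.18e-06). Krt36, a type I hair keratin also made in the tongue, was at 3.05, 23.8 and 9.95 CPM in mutants, against 0.885, 0.564 and 0.645 CPM in controls. Every mutant was above every control, but mutant 2 was far above the other mutants (log2 fold change 4.12 ± 0.67, SE; adjusted p = 7.82e-04). Without mutant 2 the log2 fold change was 3.22. The gene lies at chr11:100102007-100105626 and Krt84 at chr15:101525026-101532820, each within its keratin cluster.

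Krt6a, a type II keratin that keratinocytes make after injury, had 12, 10 and 43 counts in mutants and no count in any control. Its mean of 0.680 CPM in mutants was at least 7.52-fold higher than the 3-count floor per control library (adjusted p = 0.00121). Reads of Krt6a and its neighbour Krt6b are hard to separate, since 31.6% of the 75-base windows of its transcript also occur in Krt6b. Krt6b itself was at 1.62, 3.32 and 3.64 CPM in mutants and 2.20, 2.49 and 0.387 CPM in controls, which overlapped. Krt80, a keratin laid down near desmosomes, was at 0.812, 2.32 and 2.24 CPM in mutants, against 0.399, 0.445 and 0.549 CPM in controls. Mutant 1 was the lowest mutant but still above all controls (log2 fold change 1.95 ± 0.42, SE; adjusted p = 0.00378).

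Krt90 and Krt87, under 4 CPM in every library, had log2 fold changes of 1.65 and 0.93 and both passed. The rise of Krt79, 1.29 on the log2 scale (adjusted p = 0.0273), was lost in DESeq2 (0.0647) and without mutant 2, mutant 3, control 1, control 2 or control 3 (0.0669, 0.142, 0.0541, 0.0742 and 0.0873). Krt14, the type I keratin of basal keratinocytes, was at 1.12, 2.08 and 2.49 CPM in mutants, against 4.39, 3.15 and 4.84 CPM in controls. The highest mutant was below the lowest control (log2 fold change -1.10 ± 0.29, SE; adjusted p = 0.0117). Krt12, a keratin of the cornea, was at 2.28, 1.88 and 1.26 CPM in mutants, against 3.40, 3.18 and 3.03 CPM in controls (log2 fold change -0.84 ± 0.24, SE; adjusted p = 0.0176). Without mutant 3 the adjusted p of Krt12 was 0.0549.

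Krt5, the type II partner of Krt14, and Krt13 and Krt4, keratins of non-cornified stratified epithelia such as the oesophagus, did not pass. Krt5 was at 1.58, 1.52 and 2.21 CPM in mutants and 1.68, 1.13 and 0.678 CPM in controls. Krt13 was at 1.12, 1.96 and 1.83 CPM in mutants and 1.34, 0.594 and 0.387 CPM in controls (adjusted p = 0.0671), passing without mutant 1 (0.0465) and without control 1 (0.00861). Krt10, a keratin of the suprabasal epidermis, was at 1.66 to 2.48 CPM in mutants and 2.64 to 2.8 CPM in controls (adjusted p = 0.271). The pseudogene Krt8-ps, which shares 47.5% of its 75-base windows with Krt8, was at 11.8, 14.7 and 18.02 CPM in mutants and 18.9, 13.8 and 10.2 CPM in controls, and its values are uncertain.

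By location, 12 keratins of the set lie on chromosome 11 (chr11:99232761-100207548), of which 2 rose and 3 fell. On chromosome 15 (chr15:101347444-102032027) there are 15, of which 7 rose and 1 fell. Of these 7, Krt6a was kept only through the mutants, and the call of Krt79 was lost in several settings. Over all genes tested, 23.5% were higher and 22.8% lower.

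**Figure D3:**
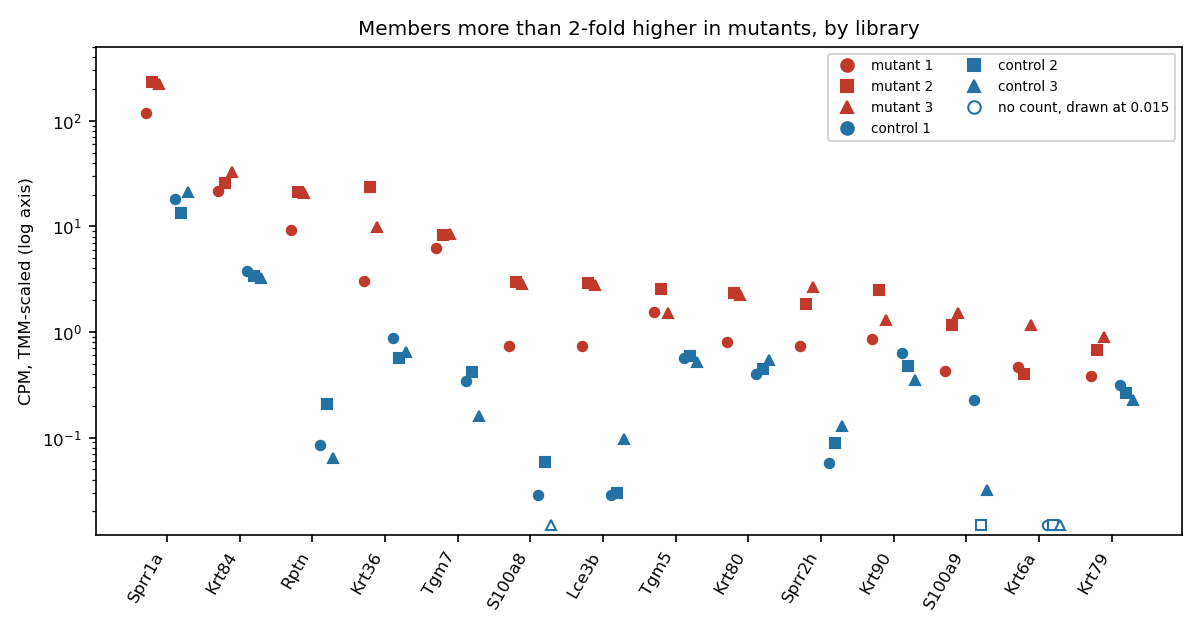
CPM of the 14 genes more than 2-fold higher in mutants, on a log y axis, for each library, with genes on the x axis in order of their mutant level; red symbols are mutants and blue symbols controls, and open symbols mark libraries with no count. Sprr1a is the most abundant, and mutant 1 (red circles) is the lowest mutant for most of these genes. Every mutant lies above every control of its gene.

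The desmosomal cadherins did not fall. Dsc2, the desmocollin of simple epithelia, was at 371, 405 and 455 CPM in mutants, against 333, 328 and 314 CPM in controls. The mutants were all above the controls by a small margin (log2 fold change 0.34 ± 0.09, SE; adjusted p = 0.0117), and the call was lost without control 3 (adjusted p = 0.0687). Dsg2, the desmoglein of simple epithelia, was at 764, 850 and 905 CPM in mutants and 740, 758 and 814 CPM in controls. These overlapped and did not pass (log2 fold change 0.12 ± 0.09, SE; adjusted p = 0.295). Dsg3, a desmoglein of stratified epithelia, was at 2.98, 2.28 and 2.82 CPM in mutants and 1.88, 2.08 and 1.16 CPM in controls (adjusted p = 0.0611). Per length, Dsg2 over Dsc2 was 1.31 ± 0.04 in mutants and 1.52 ± 0.12 in controls (SD, n = 3 each; a description). The 3 genes lie on chromosome 18.

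The plaque proteins, which tie the cadherins to the keratin filaments, were mostly lower. Of 8, Pkp1, Evpl, Ppl, Pkp2 and Dsp fell (62.5%) and none rose, and in 7 of the 8 every mutant was below every control. All 8 had at least 10 counts in every library. Of 15271 genes tested with that many counts, 25.9% were lower, and in 4807 every mutant was below every control. Dsp, the linker between plaque and keratin, was at 1282, 1245 and 1408 CPM in mutants, against 1717, 1820 and 1749 CPM in controls. The distance between the groups was larger than the spread within either (log2 fold change -0.43 ± 0.09, SE; adjusted p = 0.00337). Pkp1, a plakophilin best known from the upper layers of stratified epithelia, was at 25.9, 29.4 and 22.8 CPM in mutants, against 52.9, 48.0 and 47.6 CPM in controls. Its fall was the largest of the plaque group, and the groups were well apart (log2 fold change -0.93 ± 0.10, SE; adjusted p = 5.93e-05).

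Evpl and Ppl encode plakins that form the first scaffold of the cornified envelope. Evpl was at 67.3, 76.8 and 70.6 CPM in mutants, against 98.6, 109 and 122 CPM in controls (log2 fold change -0.61 ± 0.09, SE; adjusted p = 4.75e-04). Ppl was at 21.9, 16.8 and 17.3 CPM in mutants, against 25.7, 32.1 and 30.9 CPM in controls (log2 fold change -0.66 ± 0.12, SE; adjusted p = 0.00177). Both went the other way from the envelope gene Sprr1a. Sprr2a2, whose value is uncertain, fell as they did, and Sprr2a3 and Sprr2k did not pass. Lce3b and Sprr2h rose but were kept only through the mutants, so they are not set against Evpl and Ppl. Pkp2, a plakophilin of simple epithelia and heart, was at 44.6, 48.9 and 46.7 CPM in mutants, against 57.4, 59.0 and 59.98 CPM in controls. The libraries of each group lay close together (log2 fold change -0.33 ± 0.07, SE; adjusted p = 0.00275).

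Jup, which binds the cadherin tails, was at 185, 220 and 225 CPM in mutants and 252, 231 and 233 CPM in controls, without passing (adjusted p = 0.126). Pkp4 was at 74.0 to 79.2 CPM in mutants and 83.0 to 88.2 CPM in controls (adjusted p = 0.0761). Pkp3, a plakophilin of most epithelia, was at 69.9, 88.6 and 75.5 CPM in mutants and 73.3, 61.1 and 65.5 CPM in controls (adjusted p = 0.0966), and passed as higher without mutant 1 (0.0399). The make-up of the plakophilins differed. Per length, Pkp1 was 10.6% of their sum in mutants and 18.1% in controls, and Pkp3 was 43.9% in mutants and 33.9% in controls.

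**Figure D4:**
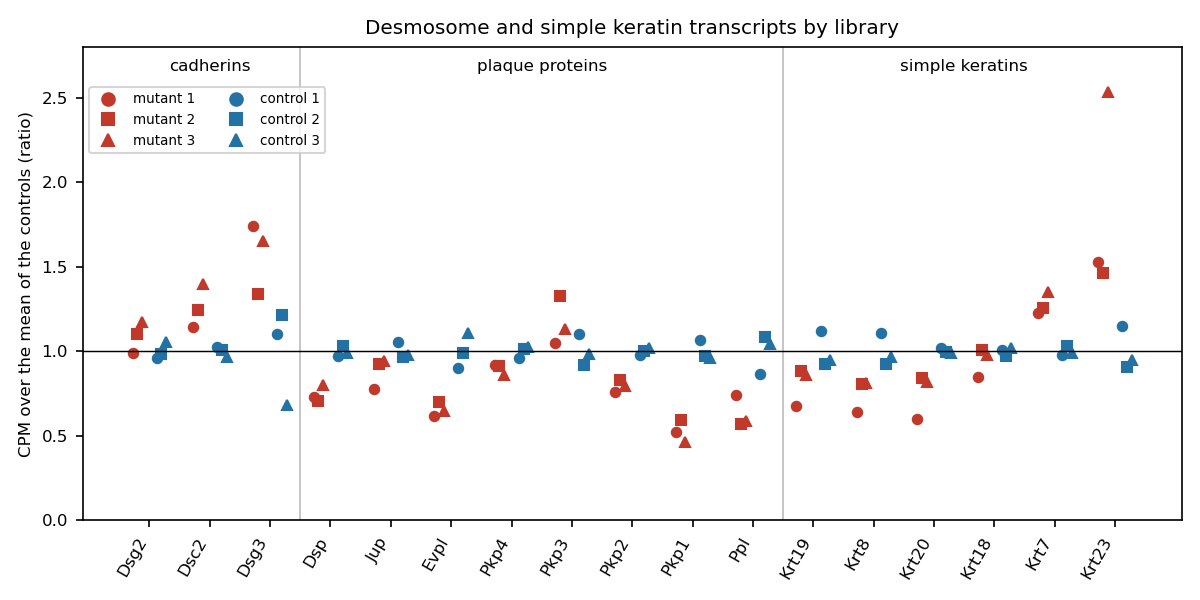
CPM of the desmosome and simple keratin genes in each library, divided by the mean of the controls, on the y axis, with genes on the x axis; red symbols are mutants, blue symbols controls, and the line at 1 is the control mean. The mutants lie below the controls for Dsp, Jup, Evpl, Pkp4, Pkp2, Pkp1, Ppl, Krt8, Krt19 and Krt20, and above them for Dsc2, Dsg3, Krt7 and Krt23.

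The small proline-rich and late envelope genes held the most abundant gene that rose more than 2-fold. Of 7, Sprr1a, Lce3b and Sprr2h rose, Sprr2a2 fell and 3 did not pass. Lce3b and Sprr2h were kept only through the mutants and had to differ to be kept. Among the 4 with 10 counts in every library, 1 was higher and 1 lower (25% each). Of all genes with that many counts, 23.3% were higher and 25.9% lower, so these shares were near the background. Sprr1a, an envelope precursor that is also made by stressed cells outside the skin, was at 119, 231 and 225 CPM in mutants, against 18.2, 13.4 and 21.2 CPM in controls. The groups were far apart, and mutant 1 was the lowest mutant (log2 fold change 3.45 ± 0.26, SE; adjusted p = 8.07e-06). Its promoter is the first sequence shown above. Lce3b, a late envelope protein of a group that human skin makes after injury, was at 0.734, 2.88 and 2.79 CPM in mutants, against 0.0285, 0.0297 and 0.0968 CPM in controls. In counts this was 193 in mutants and 5 in controls, a ratio of 44.0 after scaling (95% interval for counting error 18.5 to 137; adjusted p = 2.36e-04). Sprr2h had 162 counts in mutants and 9 in controls, a ratio of 20.5 (10.6 to 45.7; adjusted p = 3.01e-04). Without control 3 the log2 fold change of Lce3b was 6.01, against 5.31 with all libraries.

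The Sprr2a genes cannot be separated well. Sprr2a2 was at 0.464, 1.00 and 1.12 CPM in mutants, against 1.43, 2.05 and 1.68 CPM in controls (log2 fold change -0.97 ± 0.33, SE; adjusted p = 0.0368). It shares 94.6% of its 75-base windows with Sprr2a1, so this value is uncertain. The call was also lost without scaling (adjusted p = 0.0566), without mutant 1 (0.0747), mutant 2 (0.0573), control 2 (0.111) or control 3 (0.0690). Sprr2a3 was at 44.8, 111 and 89.2 CPM in mutants and 59.7, 53.5 and 60.6 CPM in controls. Mutant 1 was below the controls and the others were above them, so the groups overlapped (adjusted p = 0.138), whereas without mutant 1 the log2 fold change was 0.77 (adjusted p = 3.21e-04). Per length, Sprr1a made up 87.7% of the Sprr sum in mutants and 48.3% in controls, and Sprr2a3 made up 10.2% in mutants and 45.1% in controls.

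Rptn, which encodes repetin, a fused-type S100 protein of the cornified envelope, had the highest fold change of the genes in the set that had counts in controls. It was at 9.24, 21.0 and 20.9 CPM in mutants, against 0.0856, 0.208 and 0.0645 CPM in controls. In counts this was 1527 in mutants and 12 in controls, a ratio of 145 after scaling (95% interval for counting error 82.9 to 282). Mutant 1 was the lowest mutant, and all mutants were far above all controls (log2 fold change 7.10 ± 0.47, SE; adjusted p = 3.72e-06). Without control 2 the log2 fold change was 7.73. Crnn, which encodes cornulin, a fused-type S100 protein of squamous epithelia, was at 1.24, 1.04 and 1.09 CPM in mutants and 0.856, 0.534 and 0.968 CPM in controls (adjusted p = 0.190).

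Among 9 S100A genes, small calcium-binding proteins, S100a8, S100a9 and S100a11 rose and 6 did not pass. S100a8 and S100a9 were kept only through the mutants and had to differ to be kept. Among the 7 with 10 counts in every library, 1 was higher (14.3%) and 0 lower. Of all genes with that many counts, 23.3% were higher and 25.9% lower. S100a8 and S100a9 encode the subunits of calprotectin, which neutrophils store and inflamed epithelia also make. S100a8 was at 0.734, 2.96 and 2.87 CPM in mutants, against 0.0285, 0.0594 and 0 CPM in controls. It had 198 counts in mutants and 3 in controls, a ratio of 75.3 after scaling (95% interval for counting error 25.4 to 368; adjusted p = 2.18e-04). Without control 2 the log2 fold change was 6.84, against 6.02 with all libraries. S100a9 was at 0.425, 1.16 and 1.5 CPM in mutants, against 0.228, 0 and 0.0323 CPM in controls. It had 95 counts in mutants and 9 in controls, 8 of them in control 1 (ratio 12.0, 6.08 to 27.1; adjusted p = 0.00512). Without control 1 its log2 fold change was 5.73, against 3.49 with all libraries.

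Neutrophil markers outside the set were higher in part, and most were too low to test. Ltf and Cxcr2 were tested and did not pass (adjusted p = 0.945 and 0.321). The summed level of 14 such markers was 14.1 to 39.0 CPM in mutants and 9.73 to 14.0 CPM in controls, with 4 of the 6 tested markers higher. Most of this sum was Ly6g, at 11.1, 34.3 and 27.9 CPM in mutants and 8.22, 12.9 and 10.3 CPM in controls, which overlapped. Csf3r, Mmp9 and Clec4d also rose, by 2.70, 2.20 and 4.41 on the log2 scale, without overlap. They reached 10 counts only in mutants and had to differ to be tested, so their rises add nothing to the count. Of the 14 markers, 12 were under 1 CPM in every library, and the granule genes Elane, Camp and Ngp were at 0 to 0.160 CPM in mutants and 0 to 0.0323 CPM in controls. The granule genes Mpo and Ltf were at 0.2 to 0.680 CPM in mutants and 0.0890 to 0.623 CPM in controls. The sum of 12 macrophage and dendritic cell markers was 72.6 to 99.4 CPM in mutants and 35.4 to 44.1 CPM in controls, with 11 higher and 1 lower. Of these, Fcgr1 and Flt3 reached 10 counts only in mutants and had to differ to be tested. The background was 23.5% higher and 22.8% lower over all genes tested. The sum of 8 lymphocyte markers was 13.9 to 19.7 CPM in mutants and 11.1 to 14.0 CPM in controls. The part of such cells in the S100a8 and S100a9 values was not tested.

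S100a11, which is cross-linked into the envelope in keratinocytes, was at 36.5, 44.0 and 33.6 CPM in mutants, against 19.0, 13.9 and 25.6 CPM in controls. All mutants were above all controls (log2 fold change 0.96 ± 0.19, SE; adjusted p = 0.00248), although 37.8% of its 75-base windows also occur in the predicted gene Gm12854. S100a6, the most abundant S100A gene per length, was at 447, 738 and 708 CPM in mutants and 612, 448 and 497 CPM in controls. These overlapped, with mutant 1 as low as the lowest control (adjusted p = 0.237). Without mutant 1 its log2 fold change was 0.47 (adjusted p = 0.0142). S100a10, the partner of annexin A2, was at 220, 316 and 273 CPM in mutants and 295, 222 and 264 CPM in controls, which overlapped (adjusted p = 0.799). S100a1, S100a13, S100a14 and S100a16 had log2 fold changes between -0.07 and 0.15 and did not pass.

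Each of the 4 transglutaminases in the set passed, 2 as higher and 2 as lower, where 46.3% of all genes tested passed. Tgm7 was at 6.18, 8.24 and 8.56 CPM in mutants, against 0.342, 0.416 and 0.161 CPM in controls. The mutants were close together and far above the controls (log2 fold change 4.61 ± 0.29, SE; adjusted p = 2.97e-06). Tgm5, an epidermal enzyme that cross-links envelope proteins, was at 1.55, 2.56 and 1.5 CPM in mutants, against 0.571, 0.594 and 0.516 CPM in controls. Mutant 2 was the highest and no mutant overlapped the controls (log2 fold change 1.72 ± 0.31, SE; adjusted p = 0.00135). Tgm5 and Tgm7 are neighbours within chr2:121046111-121116396.

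Tgm3, the main transglutaminase of the set and an enzyme of envelope and hair cross-linking, was at 70.3, 209 and 156 CPM in mutants, against 345, 249 and 326 CPM in controls. Mutant 1 was far below the other mutants (log2 fold change -1.08 ± 0.31, SE; adjusted p = 0.0176), and without control 1 the adjusted p was 0.0549. Tgm2, the widely expressed tissue transglutaminase, was at 39.8, 33.5 and 32.6 CPM in mutants, against 50.8, 49.95 and 49.1 CPM in controls. The controls were nearly equal and all above the mutants (log2 fold change -0.50 ± 0.09, SE; adjusted p = 0.00106). Per length, Tgm3 made up 72.1% of the transglutaminase sum in mutants and 86.7% in controls, and Tgm7 made up 8.02% in mutants and 0.173% in controls.

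The S100, Sprr, Lce and fused-type genes lie together in the epidermal differentiation complex. Between S100a1 and S100a10 (chr3:90511034-93564643, GRCm38) the annotation placed 122 genes, of which 24 were tested. Of these, 10 rose and 1 fell, and the 18 that belong to the set accounted for 7 of the rises and the fall. Of the 10 that rose, 7 reached 10 counts only in mutants and had to differ to be tested: Rptn, S100a8, S100a9, Lce3b, Sprr2h, Lor and Tchhl1. Among the 15 with 10 counts in every library, 3 rose (Sprr1a, S100a11 and Tchh) and 1 fell, 20% and 6.67%, where 23.3% and 25.9% of all such genes did. The other rises were Tchh, Tchhl1 and Lor. Tchh, trichohyalin of the hair root sheath and tongue, was at 49.9, 45.1 and 64.2 CPM in mutants, against 4.22, 2.67 and 4.19 CPM in controls (log2 fold change 3.85 ± 0.19, SE; adjusted p = 5.80e-07). Lor, encoding the envelope protein loricrin, was at 1.16, 1.48 and 1.61 CPM in mutants, against 0.2, 0.0297 and 0.161 CPM in controls. The S100A genes at the ends of the region other than S100a8, S100a9 and S100a11 did not pass. Risen genes and genes that did not pass lay side by side.

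**Figure D5:**
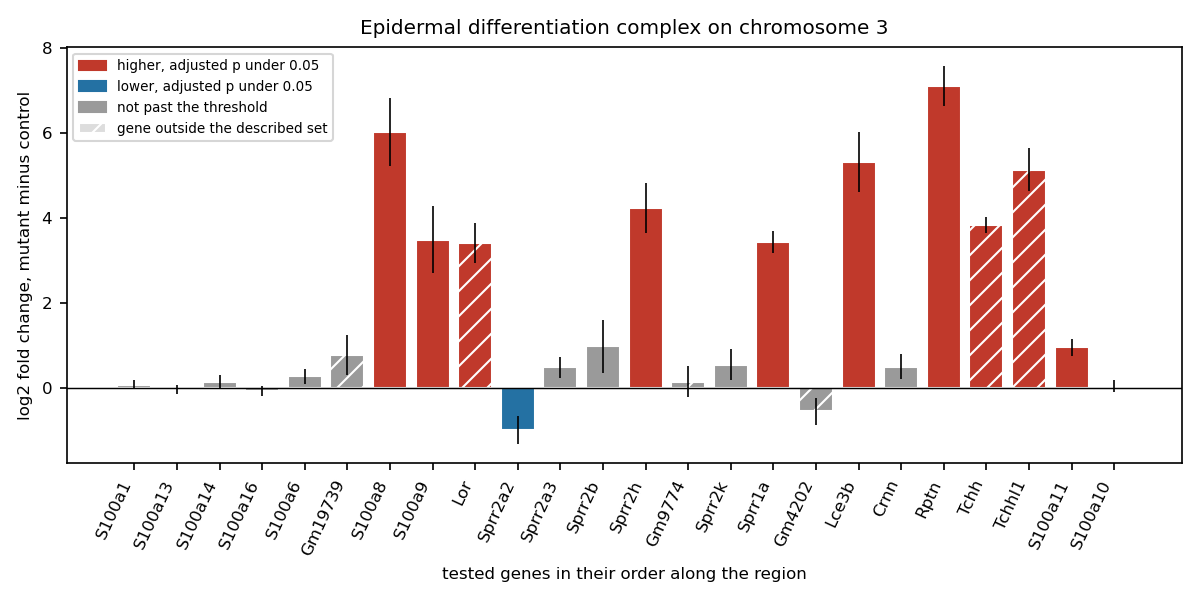
Log2 fold change, mutant minus control, on the y axis for the 24 tested genes of the epidermal differentiation complex, in their order along chromosome 3 on the x axis; bars show the estimate and lines its SE. Red bars are higher and blue bars lower in mutants at an adjusted p under 0.05, and hatched bars are genes outside the set. Rptn has the tallest bar and Sprr2a2 the only blue one.

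Related genes outside the set were counted from lists by function. The lists were chosen with earlier results of these data known, so their shares are descriptions and no test. Over all genes tested, 23.5% were higher and 22.8% lower. Among 21 tested of 41 other cornification genes, 13 rose and 3 fell (61.9% and 14.3%). Tchhl1, Ly6d and Lor reached 10 counts only in mutants and had to differ to be tested. Among 14 with 10 counts in every library, 8 rose and 3 fell (57.1% and 21.4%), where 23.3% and 25.9% of all such genes did. Besides Tchh, the smallest p-values belonged to Dmkn, Abca12 and Sfn. Dmkn, dermokine of the upper epidermis, was at 11.1, 11.5 and 10.2 CPM in mutants, against 1.20, 1.25 and 0.871 CPM in controls (log2 fold change 3.30 ± 0.18, SE; adjusted p = 1.10e-06). Sfn, the 14-3-3 protein stratifin, was at 318, 405 and 436 CPM in mutants, against 165, 146 and 174 CPM in controls (1.26 ± 0.12; adjusted p = 3.61e-05). Abca12, the lipid transporter of epidermal lamellar granules, went the other way, at 48.6, 43.2 and 61.9 CPM in mutants, against 127, 166 and 146 CPM in controls (-1.51 ± 0.14; adjusted p = 2.78e-05).

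Among 16 keratin linkers and hemidesmosome genes, 6 rose and 3 fell (37.5% and 18.8%). Col17a1, the transmembrane collagen of hemidesmosomes, was at 42.3, 33.3 and 35.7 CPM in mutants, against 0.571, 0.505 and 0.387 CPM in controls (log2 fold change 6.23 ± 0.16, SE; adjusted p = 2.21e-08). Its hemidesmosome partners Itga6, Itgb4 and Plec did not pass (adjusted p = 0.0861, 0.305 and 0.0642). Fam83h, which recruits a kinase to keratin filaments, was at 163, 189 and 199 CPM in mutants, against 103, 101 and 111 CPM in controls (0.81 ± 0.09; adjusted p = 7.04e-05). Trim29 rose by 2.22 on the log2 scale. Pof1b, an actin-binding protein of epithelial junctions, fell by 0.73 on the log2 scale.

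Among 15 adherens junction genes, 4 rose and 2 fell (26.7% and 13.3%), and the 40.0% that passed was below the 46.3% of all genes tested. Nectin2, a cell adhesion molecule, was at 353, 417 and 439 CPM in mutants, against 154, 146 and 145 CPM in controls (log2 fold change 1.44 ± 0.09, SE; adjusted p = 3.31e-06). Nectin1, of the same family, rose by 1.35, and Ajuba, a LIM-domain protein at junctions, rose by 1.71 on the log2 scale. Epcam, the epithelial adhesion molecule, fell by 0.43 on the log2 scale. Cdh1, which encodes E-cadherin, rose by 0.24 (adjusted p = 0.0428). Ctnnb1, encoding beta-catenin, did not pass (-0.04; adjusted p = 0.766).

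Among 22 tested of 27 squamous and barrier transcription factors, 3 rose and 4 fell (13.6% and 18.2%), and the median log2 fold change was -0.05. Vdr, the vitamin D receptor, was at 163, 191 and 156 CPM in mutants, against 474, 428 and 469 CPM in controls (-1.43 ± 0.10; adjusted p = 3.97e-06). Hopx fell by 0.93 on the log2 scale, whereas Kdf1, which is on this list but is not itself a transcription factor, rose by 0.80. Klf4, Grhl1, Grhl2, Grhl3, Zfp750 and Ovol1 did not pass. Trp63, the master factor of stratified epithelia, was too low to test, at 0.155, 0.2 and 0.137 CPM in mutants and 0.0285, 0.237 and 0.0645 CPM in controls.

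Markers of stratified squamous keratinocytes outside the set summed to 139 to 155 CPM in mutants and 113 to 126 CPM in controls. Of 8 tested of 12, 5 rose (Col17a1, Ly6d, Trim29, Lor and Dmkn) and 1 fell. The background was 23.5% higher and 22.8% lower over all genes tested. Ly6d and Lor were tested only through their counts in mutants and had to differ to be tested. All 5 were already counted above, Col17a1 and Trim29 among the keratin linkers and Ly6d, Lor and Dmkn among the cornification genes. Their rises are therefore not independent of those lists. Fgfbp1, which fell, made up most of the sum, and Col17a1 made up most of the rest in mutants. Of the 12, 5 were under 1 CPM in every library, among them Trp63, Krtdap, Lgals7 and Calml3. The part of such cells in the values of the set was not tested.

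Among 16 tested of 19 annexins and other S100 partners, 6 rose and 6 fell (37.5% each). Anxa8, an annexin of stratified epithelia, was at 96.6, 174 and 216 CPM in mutants, against 41.7, 31.6 and 40.7 CPM in controls (log2 fold change 2.10 ± 0.25, SE; adjusted p = 1.24e-04). Anxa5 rose by 0.98 and Ager, a receptor for S100 proteins, by 1.73 on the log2 scale. S100g, the calbindin of the gut, was at 444, 475 and 580 CPM in mutants, against 1290.4, 1992 and 1663 CPM in controls (-1.72 ± 0.16; adjusted p = 3.04e-05). Anxa2, the partner of S100a10, did not pass (-0.08; adjusted p = 0.699), nor did S100a10 itself. Tlr4, which binds calprotectin, rose by 0.73 on the log2 scale.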

How the data were processed

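Purified colonic crypt cells of 3 mutant and 3 control mice were profiled by RNA-seq. Per the labels' protocols, poly(A) RNA went into stranded SMARTer libraries. The submitters' processing notes name Trim Galore 0.6.5, STAR 2.6.1d and the build GRCm38. The authors deposited raw counts per gene and library, made with featureCounts 1.6.4 and GENCODE vM25 on paired, stranded reads without multi-mapping or overlapping reads, per the file headers, so near-identical genes can lose counts. Exon length is the file's own column.

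Genes were filtered with filterByExpr (minimum count 10, minimum total 15), leaving 18539, and scaled by TMM. Genotypes were compared with the quasi-likelihood F test of edgeR 4.0.16 in R 4.3.3, 2-sided, with Benjamini-Hochberg adjustment over all genes tested at a threshold of 0.05. Every log2 fold change is mutant minus control. The SE is the log2 fold change divided by the square root of F. Intervals for pooled counts are exact 95% intervals, for counting error only. The scripts were tested on simulated counts. Alternatives were RLE, upper quartile and no scaling, other filters, DESeq2 1.42.0, limma-voom (limma 3.58.1), a test against a 1.5-fold change, a replicate block, leaving out each library, and mutant 3 as the lone mutant library, the last added after sex-linked genes were seen. Between libraries of a group the chi-square per gene was 12.3 to 76, far above sampling noise. Nothing says that the samples are separate mice beyond the design text, so p-values measure the spread between these samples, which may be technical.

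The genes and lists were chosen with earlier results of these data known. Values were given, within each role, for up to 4 genes of smallest p and up to 2 of highest level per length, and for up to 4 genes of smallest p in each list; the other genes named were chosen after their values were seen. Promoters came from RefSeq. Proteins were not used here.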

Additional observations from a re-analysis of the deposited data

How the results depend on the processing

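Of the 31 genes that passed, none changed direction under any setting tried, and RLE and upper quartile scaling lost and gained no call. Against a 1.5-fold change, 12 genes of the set were higher and 1 lower (Pkp1). Over all genes 1720 (9.28%) were higher and 1027 (5.54%) lower. The 12 include Rptn, Krt6a, S100a8, S100a9, Lce3b and Sprr2h, which were kept only through the mutants and had to differ to be kept. The lists then held 3 called adherens junction genes, 3 keratin linkers, 3 transcription factors and 5 annexins or S100 partners, and Mettl14, at -0.85, no longer passed (adjusted p = 0.0612). With a minimum count of 50, 44 genes of the set were tested, of which 12 were higher and 11 lower. Of all genes tested there, 28.6% were higher and 27.1% lower. In that setting 4 genes of the epidermal differentiation complex passed, and fewer genes were tested (13274 in all). Without a filter, 43508 genes were tested.

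Leaving out each library gave 17 to 26 genes higher and 9 to 12 lower. The called genes then numbered 5 to 6 for adherens junctions, 8 to 10 for linkers, 15 to 17 for cornification, 6 to 8 for transcription factors, 8 to 13 for annexins and S100 partners and 11 to 15 for the complex on chromosome 3, and Mettl14 lay between -0.94 and -0.72. Values near 0 changed sign. Krt8-ps lay between -0.15 (without control 3) and 0.30 (without control 1) and was at -0.11 without mutant 3. S100a10 lay between -0.084 (without mutant 2) and 0.17 (without mutant 1) and was at -0.064 without control 2. The cause was not tested.

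With the replicate number as a block, 18 genes were higher and 11 lower, without Krt79 and Krt8, and over all genes 3789 were higher and 3614 lower. The design text speaks of 3 pairs of mice, and no label says which mutant goes with which control. Same-numbered libraries did not deviate together (correlations -0.121, -0.103 and -0.146), and the numbers were not used as pairs.

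Genes under 1 CPM rest on few counts, and p-values come from 3 libraries a group, of which mutants 1 and 2 differ in sex-linked transcripts.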

Other observations

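Some genes that matched the names but missed the minimum of 10 counts in 3 libraries were also uneven between genotypes. Of these, 2 were still tested. Dsg4, a desmoglein of hair, had 9, 14 and 21 counts in mutants and 2, 6 and 3 in controls and rose by 2.13 on the log2 scale (adjusted p = 0.00612). Krt42, a type I keratin, had 8, 8 and 19 counts in mutants and 7, 7 and 6 in controls and did not pass (adjusted p = 0.0857).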
